A study of Mus musculus with 9 samples.

Results

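The neutrophil genes described here are *S100a8*, *S100a9*, *Csf3r*, *Cxcr2*, *Retnlg*, *Lcn2*, *Trem1*, *Clec4d*, *Il1r2* and *Ngp*. They were chosen by symbol, as the subunits of calprotectin and as receptor and granule genes of neutrophils, and all 10 were among the 19481 genes of the table. RNA of 9 subcutaneous tumors of KLN205, a mouse lung squamous carcinoma line, was sequenced in bulk. The tumors grew in the right flank of immunocompetent female DBA/2 mice. In 3 tumors the carcinoma cells carried a scrambled inducible shRNA (shControl), and in 3 tumors each they carried 1 of 2 inducible shRNAs against *Tmprss11b*, named sh2 and sh3. All 9 mice, the shControl mice included, received doxycycline in their water once the mean tumor volume of the study had reached a set value, and the tumors were resected on day 50. Only the injected carcinoma cells carried an shRNA, so every neutrophil in these tumors came from the host. The comparisons below ask whether the neutrophil genes differed between tumors with and without the *Tmprss11b* shRNAs, and between the 2 shRNAs.

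Neutrophils are short-lived phagocytes that leave the bone marrow under the control of granulocyte colony-stimulating factor and follow CXC chemokines into inflamed tissue and tumors. They store antimicrobial proteins in granules that form in sequence while the cell matures, so that mature cells hold granule proteins whose transcripts have largely been switched off. Mature neutrophils keep abundant transcripts of calprotectin and of the receptors for chemokines, growth factors and danger signals. Several of the genes are not restricted to neutrophils: monocytes and stressed keratinocytes also make calprotectin, monocytes carry *Csf3r*, *Trem1*, *Clec4d* and *Il1r2*, and many epithelia make lipocalin 2.

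Depth was even, with 20653219 to 24047784 counts per tumor, so that a level of 3 counts corresponded to 0.123 to 0.152 CPM (counts scaled to a common library size, here normalized by the TMM method). This floor covers counting error only. *Tmprss11b*, listed under its older symbol *Tmprss11bnl*, had 18, 51 and 42 counts in the shControl tumors, 7, 2 and 5 in the sh2 tumors, and 10, 4 and 5 in the sh3 tumors, so every shRNA tumor was below every shControl tumor. Some tumors stood apart in the markers of other cells. The summed level of 14 keratinocyte genes was 890 CPM in shControl replicate 1 and 68.4 to 490 CPM in the other tumors, 4 skeletal muscle genes reached 2445 CPM in shControl replicate 3 and 1.08 to 791 CPM elsewhere, and 12 macrophage and monocyte genes ranged from 2281 CPM in sh3 replicate 1 to 7767 CPM in sh3 replicate 2.

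The label of the gene group held in part. The 10 genes were counted in every tumor, whereas the transcripts of neutrophil precursors were at or near the floor. Other genes of mature neutrophils were not all counted in every tumor: *Cxcr1* had 0 to 5 counts and *BC100530* 0 to 535. All 10 genes passed the filter on low counts, and the scarcest 2, *Ngp* and *Retnlg*, were counted 1 to 46 and 5 to 42 times per tumor. Of 6 genes of the primary granules and of precursors (*Mpo*, *Elane*, *Prtn3*, *Ctsg*, *Ms4a3* and *Cebpe*), 3 never had more than 10 counts, and only *Prtn3*, a granule serine protease, passed the filter. Their summed level was 0.852 to 1.76 CPM in shControl, 0.674 to 2.22 CPM in sh2 and 0.647 to 1.02 CPM in sh3. *Ly6g* was looked for by symbol but was not among the 19481 genes, so it could not be analysed here. In bulk RNA, fewer cells of a type and less RNA per cell cannot be told apart, which holds for every difference given below.

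Levels of different genes were compared in deposited TPM, a share of all transcripts that corrects for gene length. By the median of the 9 tumors the order was *Lcn2* (360 TPM), *S100a9* (132 TPM), *S100a8* (75.9 TPM), *Csf3r* (31.9 TPM), *Il1r2* (14.5 TPM), *Clec4d* (11.0 TPM), *Cxcr2* (5.82 TPM), *Trem1* (4.87 TPM), *Retnlg* (3.56 TPM) and *Ngp* (0.513 TPM). The ranges of every pair of neighbours in this order overlapped, so no neighbours were apart by more than their spread over tumors. Within a tumor the order was steadier. *S100a9* was above *S100a8*, and *Il1r2* above *Clec4d*, in 9 of 9 tumors, and the higher of each other pair of neighbours was higher in 7 or 8 of 9 tumors. *Lcn2* fell below *S100a9* in 1 tumor.

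**Figure D1:**
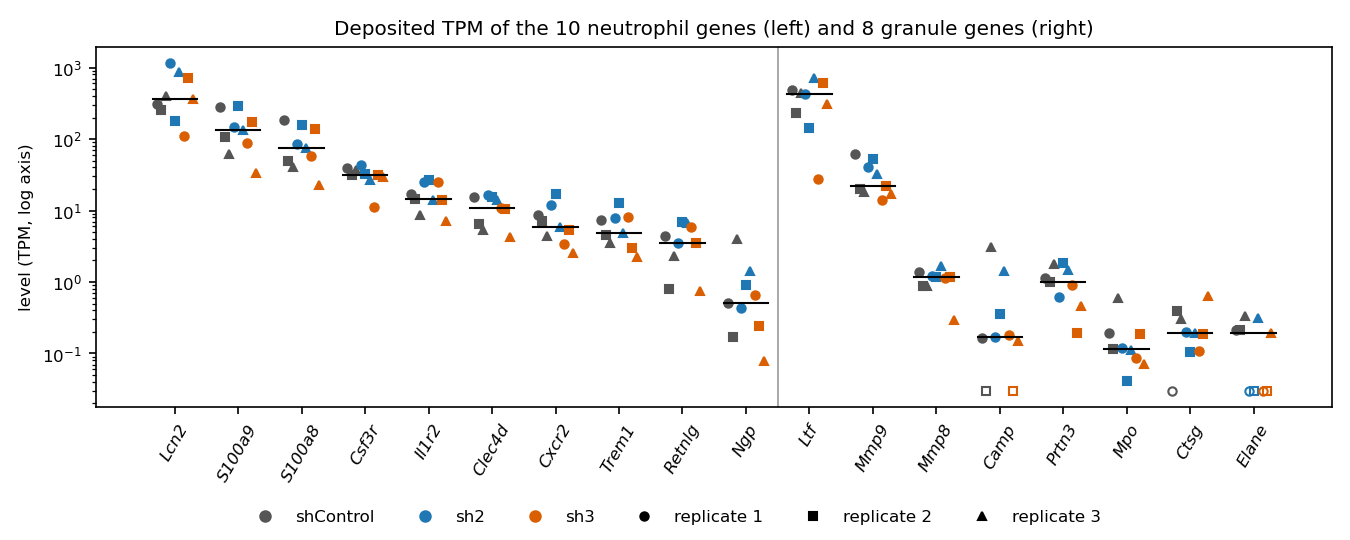
Deposited TPM (log axis) of the 10 neutrophil genes, ordered by their median, and of 8 further granule genes in each of the 9 tumors; colors give the group, symbols the replicate, black lines the median, and open symbols drawn at 0.03 stand for a value of 0. *Lcn2* and *Ltf* lie at the top, near a median of 360 TPM and above, whereas the medians of *Ngp* and of the genes of the primary granules lie at about 1 TPM or below.

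Calprotectin, the dimer of S100A8 and S100A9, binds calcium and zinc and is a major cytosolic protein of neutrophils. *S100a8* was at 30.6, 8.24 and 6.47 CPM in shControl replicates 1 to 3, at 13.8, 28.2 and 12.9 CPM in sh2, and at 9.71, 29.5 and 4.19 CPM in sh3. Each group held 1 tumor near 30 CPM and 2 tumors below 14 CPM, so the groups overlapped throughout. *S100a9* was at 63.0, 23.4 and 12.9 CPM in shControl, at 31.9, 68.9 and 30.0 CPM in sh2, and at 19.8, 48.8 and 8.43 CPM in sh3. The same 3 tumors, shControl replicate 1, sh2 replicate 2 and sh3 replicate 2, were highest for both subunits, and sh3 replicate 3 was lowest for both.

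The differences between groups were small against this spread. The log2 fold change of *S100a8* was 0.28 (SE 0.77) for sh2 against shControl and −0.06 (SE 0.77) for sh3 against shControl, and that of *S100a9* was 0.40 (SE 0.71) and −0.37 (SE 0.71). In edgeR's quasi-likelihood test, with the false discovery rate (FDR) taken over all 14725 genes tested, the lowest FDR of these 4 values was 0.939. The direction of *S100a8* and of *S100a9* turned with single tumors. Without shControl replicate 1, *S100a8* was 1.31 higher in sh2 and 0.95 higher in sh3 on the log2 scale, and without sh2 replicate 2 the value for sh2 was −0.17.

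Over tumors, in contrast, the subunits moved together. Their log2 CPM values had a Pearson r of 0.98 (exact permutation P = 5.2e-05, adjusted over 6 relations 0.00031) and a Spearman rho of 0.93 (P = 0.00075, adjusted 0.0045). With sh3 replicate 3 and shControl replicate 1 left out, the 2 tumors farthest from the median of *S100a8*, r was 0.96, and with the mean of each group removed it was 0.99. The ratio of *S100a9* to *S100a8* in TPM stayed between 1.24 in sh3 replicate 2 and 2.13 in shControl replicate 2, while *S100a8* itself ranged over 7.30-fold in CPM. With *Krt6a*, a keratin of stressed keratinocytes, *S100a8* had an r of 0.05 (permutation P = 0.90). *Krt5*, a keratin of basal squamous cells, was at 87.4, 0.455 and 0.573 CPM in shControl, at 0.843, 5.02 and 1.88 CPM in sh2, and at 0.0925, 0.305 and 0.0856 CPM in sh3. Its highest and its lowest tumor were those of *S100a8*, while sh3 replicate 2, the second highest for *S100a8*, was the third lowest for *Krt5*. In the tumors highest for *S100a8* the summed keratinocyte level was 890 CPM (shControl replicate 1), 301 CPM (sh3 replicate 2) and 221 CPM (sh2 replicate 2). It was 68.4 to 490 CPM in the other tumors. The part of keratinocytes in the level of calprotectin was not tested.

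*S100a8* and *S100a9* lie in the same gene cluster on chromosome 3 and are transcribed from opposite strands (GRCm38, *S100a8* chr3:90669071-90670034 on the plus strand, *S100a9* chr3:90692630-90695721 on the minus strand). Because the pair moved together over tumors and *Lcn2* did not follow it, the 250 bases before the start of each of these 3 genes are shown, read 5′ to 3′ on the strand of the gene from RefSeq promoter sequences of GRCm38.p6. They cover chr3:90668821-90669070 (plus strand) for *S100a8*, chr3:90695722-90695971 (minus strand) for *S100a9* and chr2:32387740-32387989 (minus strand) for *Lcn2*. Capitals mark TATAAA on the strand of the gene and the C/EBP-type pattern TTNNGNAA on either strand (TTNCNNAA when read on the other); the C/EBP factors are regulators of granulocyte genes.
S100a8: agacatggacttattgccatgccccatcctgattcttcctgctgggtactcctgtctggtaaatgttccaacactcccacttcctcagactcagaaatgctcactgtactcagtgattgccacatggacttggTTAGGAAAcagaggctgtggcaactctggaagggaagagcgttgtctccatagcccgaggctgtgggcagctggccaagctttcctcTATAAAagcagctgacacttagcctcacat
S100a9: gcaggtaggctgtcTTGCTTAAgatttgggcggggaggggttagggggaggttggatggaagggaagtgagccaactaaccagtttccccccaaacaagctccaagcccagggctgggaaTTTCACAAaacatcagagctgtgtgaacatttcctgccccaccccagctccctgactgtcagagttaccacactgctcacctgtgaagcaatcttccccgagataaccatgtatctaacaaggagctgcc
Lcn2: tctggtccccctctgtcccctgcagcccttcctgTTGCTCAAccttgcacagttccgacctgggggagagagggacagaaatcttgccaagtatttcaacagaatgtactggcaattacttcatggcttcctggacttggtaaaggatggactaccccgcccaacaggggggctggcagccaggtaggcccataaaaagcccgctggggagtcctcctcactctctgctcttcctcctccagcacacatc
A TATAAA stands 30 bases before the start of *S100a8* and was not found before *S100a9* or *Lcn2*. The C/EBP-type pattern was found once before *S100a8*, 117 bases from the start, at 236 and 130 bases before *S100a9*, and 216 bases before *Lcn2*. It was found before 7 of the 10 neutrophil genes and in 36.8% of 32851 promoter windows of the same length, and TATAAA before 1 of the 10 genes and in 7.59% of the windows. The pattern GAGGAA, searched on both strands as a core bound by PU.1, another factor of myeloid genes, was found before 6 of the 10 genes and in 23.3% of the windows. In the window before *S100a8* it stands next to TATAAA without overlapping it. Each window was placed by 1 annotated start of its gene. For *Csf3r* and *Il1r2* the window lies within the span of the gene, and for *Trem1* it runs past the start of the span. The counts over the 10 genes therefore include sequence that is not before the outermost start. A match is a description of the letters, not of binding.

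**Figure D2:**
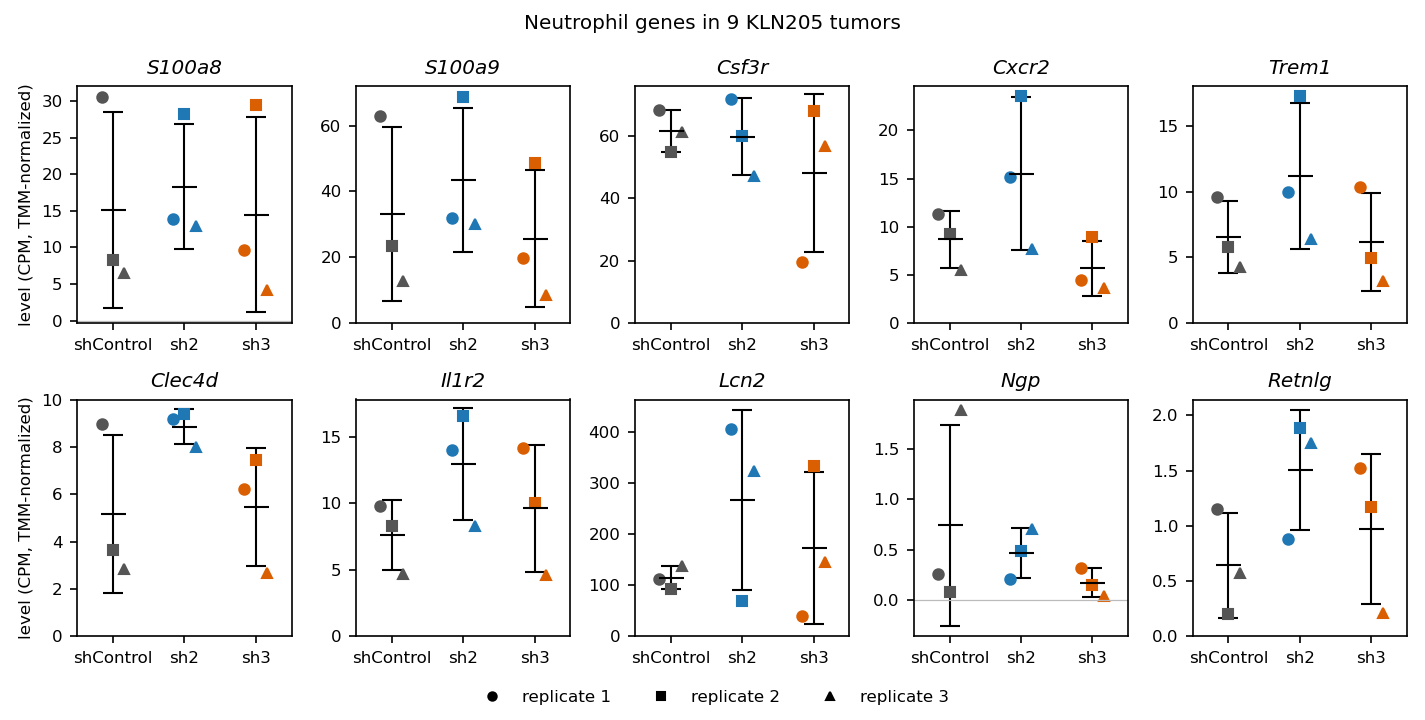
Level of each of the 10 neutrophil genes in CPM (TMM-normalized, linear axis) by group; symbols are single tumors, marked by replicate number, and black lines are the mean ± SD of 3 tumors. The groups overlap for every gene except *Clec4d*, whose 3 sh3 tumors lie below the 3 sh2 tumors.

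Among the receptors, *Csf3r*, which encodes the receptor of granulocyte colony-stimulating factor and sustains neutrophil production and survival, had the smallest coefficient of variation of the 10 genes over the 9 tumors, 28.0% beside 41.5% to 124% for the others. It was at 68.4, 54.8 and 61.4 CPM in shControl, at 71.9, 59.9 and 47.3 CPM in sh2, and at 19.6, 67.9 and 56.6 CPM in sh3. Leaving out sh3 replicate 1, the lowest at 19.6 CPM, changed the log2 fold change of sh3 against shControl from −0.36 (SE 0.38) to 0.02. For sh2 it was −0.04 (SE 0.38). In sh3 replicate 1 the summed macrophage and monocyte markers and *Itgam* and *Itgb2*, integrins of all myeloid cells, were also lowest (56.4 CPM for *Itgam* against 102 CPM or more in the other tumors), and the part of these cells in the low *Csf3r* level was not tested.

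*Cxcr2* encodes the receptor through which neutrophils follow CXC chemokines. It was at 11.3, 9.23 and 5.49 CPM in shControl, at 15.2, 23.6 and 7.68 CPM in sh2, and at 4.44, 8.89 and 3.64 CPM in sh3. Of the sh2 tumors, 2 were above every shControl tumor, and of the sh3 tumors 2 were below every shControl tumor. The mean level was 8.67 ± 2.94 CPM (SD, n = 3) in shControl, 15.5 ± 7.95 CPM (SD, n = 3) in sh2 and 5.66 ± 2.83 CPM (SD, n = 3) in sh3. The log2 fold change was 0.84 (SE 0.48) for sh2 and −0.62 (SE 0.48) for sh3 against shControl, with an FDR of 0.999 and 0.834 from edgeR's quasi-likelihood test. Between the 2 shRNAs it was −1.45 (SE 0.49, unadjusted P = 0.015, FDR = 0.673), the only value of any of the 10 genes in any comparison with an unadjusted P under 0.05. Without sh2 replicate 2 it was −1.05 and no longer passed that limit.

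*Trem1* and *Clec4d* encode activating receptors of the myeloid surface, the first amplifying Toll-like receptor signals and the other a C-type lectin that recognises microbial glycolipids, and *Il1r2* encodes a decoy that binds interleukin 1 without signalling. *Trem1* was at 9.58, 5.79 and 4.26 CPM in shControl, at 9.98, 17.3 and 6.38 CPM in sh2, and at 10.3, 4.93 and 3.21 CPM in sh3. Its highest tumor was sh2 replicate 2 and its lowest sh3 replicate 3, with overlap between all groups. *Clec4d* was at 8.99, 3.64 and 2.87 CPM in shControl, at 9.18, 9.42 and 8.01 CPM in sh2, and at 6.24, 7.47 and 2.69 CPM in sh3. The sh2 tumors were alike, at 8.87 ± 0.755 CPM (SD, n = 3), and lay above all 3 sh3 tumors, but shControl replicate 1 was within their range of 8.01 to 9.42 CPM. *Il1r2* was at 9.84, 8.32 and 4.71 CPM in shControl, at 14.0, 16.6 and 8.30 CPM in sh2, and at 14.2, 10.1 and 4.62 CPM in sh3. Its highest level was again in sh2 replicate 2, and the sh3 tumors spread over nearly the whole range.

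For sh2 against shControl the log2 fold changes of these receptors were 0.78 (SE 0.52) for *Trem1*, 0.78 (SE 0.49) for *Clec4d* and 0.76 (SE 0.45) for *Il1r2*. Without any single tumor they were 0.33 to 1.16, 0.50 to 1.45 and 0.52 to 1.01, the highest value of *Clec4d* being that without shControl replicate 1. For sh3 they were −0.09, 0.08 and 0.34, and each of these turned sign when at least 1 tumor was left out. Between the shRNAs, *Clec4d* was lower with sh3 by 0.70 on the log2 scale (SE 0.49, FDR = 0.728). This was the only non-overlap of groups among the 10 genes in any comparison, and the exact permutation P for it was 0.1, the smallest that 3 tumors against 3 can give. The signalling receptor of interleukin 1, *Il1r1*, was above its decoy *Il1r2* in all 9 tumors by TPM, between 1.03-fold in sh2 replicate 2 and 4.23-fold in shControl replicate 3.

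*Lcn2*, *Ngp* and *Retnlg* encode secreted proteins of neutrophils. Lipocalin 2 binds bacterial siderophores and is stored in secondary granules, neutrophilic granule protein is a cathelicidin-like protein of late precursors, and *Retnlg* encodes a resistin-like cytokine of marrow and blood neutrophils. *Lcn2* was at 112, 93.4 and 138 CPM in shControl, at 406, 69.1 and 324 CPM in sh2, and at 39.6, 332 and 146 CPM in sh3. The shControl tumors lay close together, at 114 ± 22.4 CPM (SD, n = 3), while the sh2 tumors (266 ± 176 CPM, SD, n = 3) and the sh3 tumors (173 ± 148 CPM, SD, n = 3) spread to both sides of them. Its log2 fold change was 1.22 (SE 0.75) with sh2 and 0.59 (SE 0.74) with sh3, the latter −0.30 without sh3 replicate 2. In sh2 replicate 2, where *S100a9*, *Cxcr2*, *Trem1*, *Clec4d*, *Il1r2* and *Retnlg* were each at their highest, *Lcn2* was second lowest of the 9 tumors.

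*Lcn2* shared its lowest tumors with *Ltf*. *Ltf*, which encodes lactoferrin, another protein of the secondary granules that glandular epithelia also make, was at 574, 269 and 482 CPM in shControl, at 494, 181 and 847 CPM in sh2, and at 31.8, 897 and 406 CPM in sh3. The same 3 tumors were lowest for both genes: sh3 replicate 1, sh2 replicate 2 and shControl replicate 2. *Camp* and *Mmp8*, genes of the same class of granules, were at no more than 0.737 and 1.75 CPM in any tumor. The sources of *Lcn2* and *Ltf* were not tested.

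*Ngp* was counted 6, 2 and 46 times in shControl, 5, 10 and 17 times in sh2, and 7, 3 and 1 times in sh3. The tumors highest for *Ngp*, shControl replicate 3 and sh2 replicate 3, were also highest for *Camp*, with 18 and 9 counts against 0 to 2 in the other tumors. The log2 fold change of *Ngp* was −0.66 (SE 1.01) with sh2 and −2.08 (SE 1.12) with sh3. It rested on shControl replicate 3, without which it was 1.44 and 0.01. *Retnlg* was at 1.15, 0.207 and 0.573 CPM in shControl, at 0.885, 1.88 and 1.75 CPM in sh2, and at 1.53, 1.17 and 0.214 CPM in sh3. With log2 fold changes of 1.22 (SE 0.76) for sh2 and 0.58 (SE 0.76) for sh3, it stayed above 0 without any single tumor. The value for sh2 was then 0.81 (without shControl replicate 2) to 1.93 (without shControl replicate 1), and that for sh3 0.087 (without sh3 replicate 1) to 1.28 (without shControl replicate 1). At 5 to 42 counts per tumor the counting error of *Retnlg* was large.

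**Figure D3:**
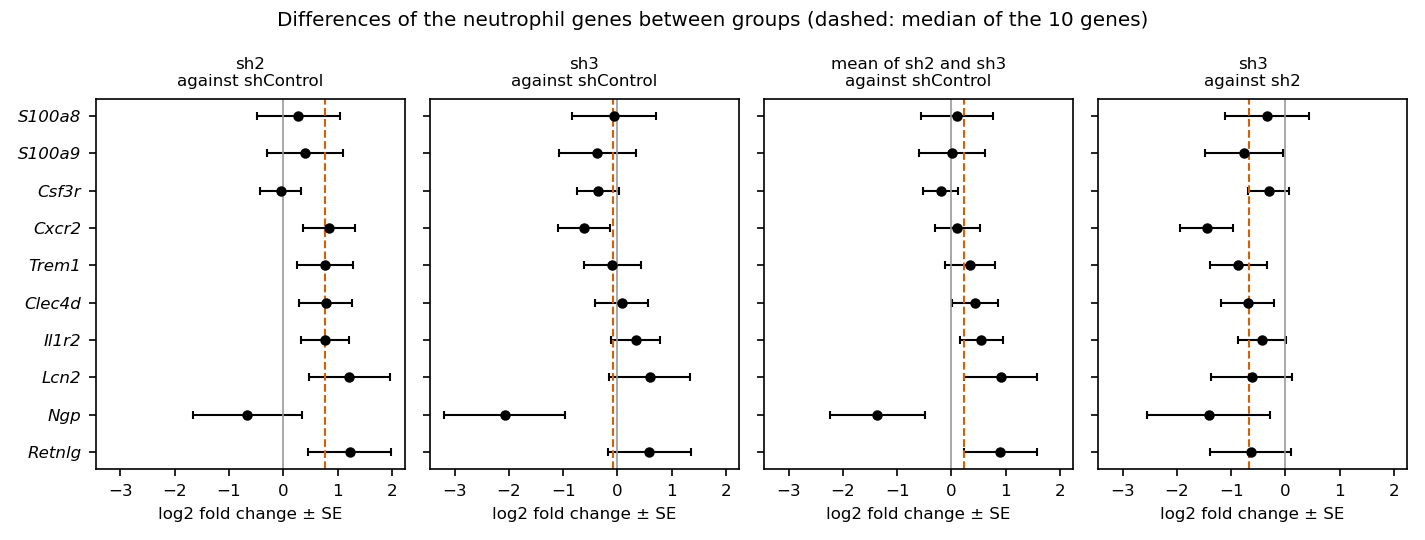
Log2 fold changes ± SE (edgeR, all 9 tumors in 1 fit) of the 10 neutrophil genes in the 4 comparisons; the dashed line is the median of the 10 genes. Most values of sh2 against shControl lie right of 0, those of sh3 against shControl lie on both sides, and all 10 values of sh3 against sh2 lie left of 0, from −0.31 to −1.45.

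None of the 10 neutrophil genes was called in any comparison. Each gene was tested singly, and the group as a whole was described but not tested. With sh2, 8 of the 10 genes had a higher estimate than shControl, with a median log2 fold change of 0.77 beside 0.01 over all 14725 genes tested. None passed an FDR of 0.05 (0% of all genes did), none had an unadjusted P under 0.05 (3.52% of all genes did), and for none did the sh2 and shControl tumors not overlap (11.4% of all genes). Without shControl replicate 1 the median was 1.18, and without sh2 replicate 2 it was 0.37 with 6 of 10 estimates above 0. With sh3, 4 of the 10 genes had a higher and 6 a lower estimate, with a median of −0.08 beside 0.03 over all genes. Again 0 of 10 passed the FDR (0% of all genes), had an unadjusted P under 0.05 (6.63%) or did not overlap (12.2%). The sh3 median was 0.51 without shControl replicate 1, 0.28 without sh3 replicate 3, and −0.49 without sh3 replicate 2.

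For the mean of both shRNAs against shControl the median was 0.23 beside 0.02 over all genes, with 8 estimates above 0 and 2 below. Here too 0 of 10 genes passed the FDR (0% of all genes), had an unadjusted P under 0.05 (4.09%) or were without overlap (2.17%). The median was 0.82 without shControl replicate 1 and 0.0014 without sh2 replicate 2. The lowest exact permutation P of any of the 10 genes was 0.262, for *Retnlg*, where 0.0119 is the smallest that 6 tumors against 3 can give. DESeq2 and edgeR's likelihood ratio test also called 0 of the 10 genes in each of the 4 comparisons, although DESeq2 gave no FDR for *Ngp* in sh3 against sh2.

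Between the shRNAs the estimates of all 10 genes were lower with sh3 than with sh2, with a median of −0.67 beside 0.03 over all genes, of which 45.1% had a lower estimate. None of the 10 passed the FDR (0% of all genes), 1 (*Cxcr2*) had an unadjusted P under 0.05 (7.18% of all genes) and 1 (*Clec4d*) did not overlap (10.1% of all genes), shares of the 10 genes near those of all genes. The genes are not independent of each other, since several rose and fell together over the same tumors. The median was −0.45 without sh2 replicate 2, −0.44 without sh3 replicate 3 and −1.17 without sh3 replicate 2, and in 9 or 10 of 10 genes the estimate was below 0 whichever tumor was left out. The comparisons with shControl share the shControl tumors, and the comparison between shRNAs shares the sh2 and sh3 tumors with them.

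Single tumors stood out across many of the genes. Sh2 replicate 2 was among the 3 highest tumors for 8 of the 10 genes, sh2 replicate 1 for 6 and shControl replicate 1 for 5. Sh3 replicate 3 was among the 3 lowest for 8 genes, shControl replicate 3 for 7 and shControl replicate 2 for 6. *S100a8*, *S100a9*, *Cxcr2*, *Trem1*, *Clec4d* and *Il1r2* shared sh3 replicate 3 as their lowest tumor, and so did *Ngp*. *Csf3r* and *Lcn2* did not follow this order, since both were lowest in sh3 replicate 1 and highest in sh2 replicate 1.

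**Figure D4:**
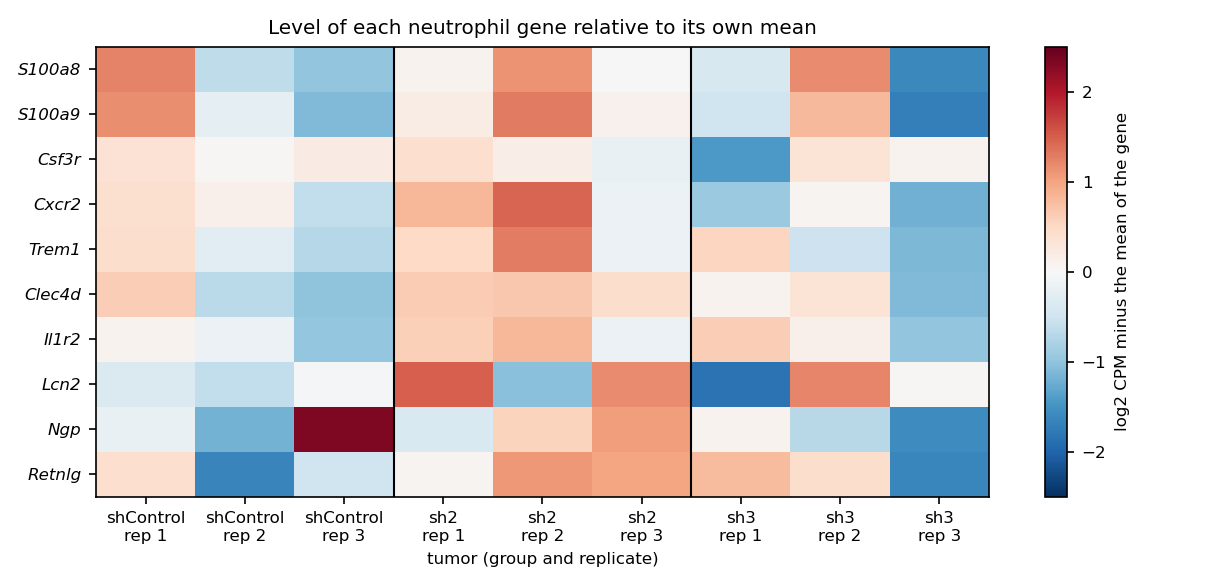
Log2 CPM (prior count of 2) of each neutrophil gene in each tumor minus the mean of that gene over the 9 tumors, as colors from blue (below) to red (above). Sh3 replicate 3 is blue for most genes and sh2 replicate 2 red for most, whereas the row of *Lcn2* is blue in sh2 replicate 2 and the row of *Ngp* is darkest in shControl replicate 3.

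Relations of *Csf3r* with the other genes were weak or rested on single tumors. Its r with *Cxcr2* was 0.49 (permutation P = 0.20, adjusted 0.40; rho 0.55, P = 0.13), with *S100a8* 0.28 (P = 0.53, adjusted 0.80; rho 0.52, P = 0.16) and with *Trem1* −0.18 (P = 0.69, adjusted 0.82; rho −0.03, P = 0.95), all by permutation. With *Lcn2* it was 0.62 (permutation P = 0.053, adjusted 0.16; rho 0.53, P = 0.15), and without the 2 tumors farthest from the median of *Lcn2*, sh3 replicate 1 and sh2 replicate 1, it was −0.18, so this relation rested on those tumors. Without the 2 farthest tumors of the first gene, the values were 0.38 for *Csf3r* with *Cxcr2*, 0.32 for *S100a8* with *Csf3r*, −0.36 for *Trem1* with *Csf3r* and 0.09 for *S100a8* with *Krt6a* (rho 0.12 over 9 tumors, permutation P = 0.78; adjusted P of its r 0.90). The adjusted P of the rho values other than that of the calprotectin subunits ranged from 0.243 to 0.948.

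**Figure D5:**
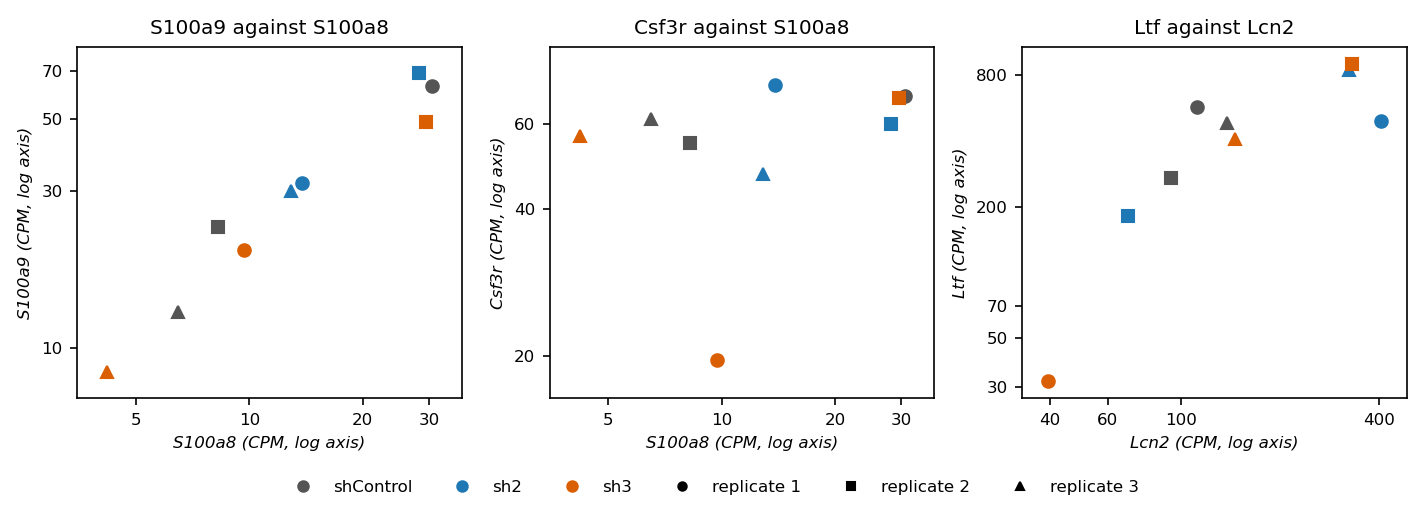
CPM (log axes) of *S100a9* against *S100a8*, of *Csf3r* against *S100a8* and of *Ltf* against *Lcn2* in the 9 tumors; colors give the group and symbols the replicate. The calprotectin subunits lie along a line (r = 0.98), *Csf3r* stays between 47.3 and 71.9 CPM in 8 tumors over the whole range of *S100a8* and is 19.6 CPM in sh3 replicate 1, and *Ltf* and *Lcn2* are both lowest in that tumor.

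The tested genes whose log2 CPM followed *S100a8* most closely over the 9 tumors, the neutrophil genes themselves aside, were *Nova2* (r = 0.94, rho 0.95), *Clec4e* (r = 0.92, rho 0.93), *Bcl6b* (r = 0.92, rho 0.90), *BC018242* (r = 0.90, rho 0.97) and *Trim29* (r = 0.90, rho 0.93). *Trim29* is known from squamous and other epithelia and was at 0.299 to 11.8 CPM. *Clec4e* encodes Mincle, the C-type lectin receptor that pairs with the product of *Clec4d*, and was at 2.27 to 8.43 CPM. For *Csf3r* they were *Rasgrp3* (r = 0.97, rho 0.90), *Nfam1* (r = 0.96, rho 0.80), *Ganc* (r = 0.95, rho 0.72), *Syn1* (r = 0.95, rho 0.60) and *Dkk2* (r = 0.95, rho 0.82). *Nfam1* encodes an immunoreceptor adaptor of myeloid and B cells. These are the highest values among 14715 genes over 9 tumors from the same 3 groups and are given as a description.

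The other genes of the neutrophil program were listed by function, and none of them passed an FDR of 0.05 in any of the 4 comparisons. Among 10 tested receptors and adhesion molecules of mature neutrophils, the median log2 fold change was 0.17 with sh2, 0.06 with sh3 and −0.22 for sh3 against sh2. The most abundant were *Itgb2* (75.8 to 209 CPM) and *Itgam* (56.4 to 173 CPM), which pair as an adhesion integrin, *Ccr1*, a chemokine receptor (22.0 to 77.1 CPM), and *C5ar1*, the receptor of complement C5a (13.9 to 28.7 CPM). *C5ar1* had an unadjusted P of 0.021 for sh3 against sh2 (log2 fold change −0.62, SE 0.22), where all 3 sh3 tumors were below all 3 sh2 tumors (10.1% of all genes were without overlap in this comparison). *Ccr1*, like 7 of the 10 neutrophil genes, was lowest in sh3 replicate 3 and, like 6 of them, highest in sh2 replicate 2. *Itgb2* and *Itgam*, which other myeloid cells also carry, were lowest in sh3 replicate 1, as was the sum of the macrophage and monocyte genes. The part of those cells in the levels of this list was not tested.

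Of 6 tested genes of the secondary and tertiary granules and of late precursors, the median was 0.36 with sh2, −0.02 with sh3 and −0.32 for sh3 against sh2. Beside *Ltf* the most abundant were *Padi4* (77.5 to 203 CPM), an arginine deiminase needed for neutrophil extracellular traps, *Mmp9*, gelatinase B (18.9 to 84.9 CPM), and *Cd177*, a neutrophil surface glycoprotein (0.043 to 8.99 CPM). *Padi4* was highest in sh3 replicate 1, the tumor lowest for *Csf3r*, *Ltf*, *Mmp9*, *Itgam* and *Itgb2*. Its median over the tumors was 98.9 TPM, beside 31.9 TPM for *Csf3r*, and the source of *Padi4* was not tested. *Cd177* was at 1.85, 8.99 and 1.75 CPM in sh2 and at 0.462, 0.762 and 0.043 CPM in sh3, with a log2 fold change of −3.31 between them (SE 0.93, unadjusted P = 0.0060, FDR = 0.673). Against shControl its value in sh2 was 2.22 (SE 0.87, unadjusted P = 0.030), and the sh2 tumors were above every shControl tumor, which holds for 1 of the 6 genes and, in either direction, for 11.4% of all genes.

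Of 8 tested genes of mature or activated neutrophils, the median was −0.20 with sh2, −0.70 with sh3 and −0.63 for sh3 against sh2. The most abundant were *Wfdc17* (37.5 to 261 CPM), *Il1b*, the cytokine interleukin 1β (37.1 to 108 CPM), *Slfn4* (9.92 to 65.2 CPM) and *Acod1*, the enzyme that makes itaconate, listed as *Irg1* (10.2 to 26.0 CPM). Macrophages and monocytes also make *Il1b*, *Wfdc17* and *Acod1*. *Slfn4* was at 32.3, 65.2 and 16.4 CPM in sh2 and at 15.7, 12.2 and 9.92 CPM in sh3, with a log2 fold change of −1.59 (SE 0.43, unadjusted P = 0.0048, FDR = 0.673 in edgeR's test). Its sh2 and sh3 tumors did not overlap, which held for 3 of the 8 genes and for 10.1% of all genes.

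Most ligands of the receptors were counted in every tumor. The CXC chemokine *Cxcl15*, chosen here after its values were seen, had 0 counts in shControl replicates 1 and 2 and in sh3 replicates 1 and 3. *Csf3*, granulocyte colony-stimulating factor and the ligand of *Csf3r*, was at 58.9, 25.5 and 53.4 CPM in shControl, at 49.1, 66.2 and 30.1 CPM in sh2, and at 50.4, 35.7 and 37.8 CPM in sh3. *Cxcl5*, a ligand of *Cxcr2*, was at 66.8, 18.5 and 25.6 CPM in shControl, at 27.1, 183 and 51.1 CPM in sh2, and at 3.10, 16.8 and 22.0 CPM in sh3. *Cxcl5* and *Cxcr2* shared their highest tumor, sh2 replicate 2. The log2 fold change of *Cxcl5* for sh3 against sh2 was −2.64 (SE 0.89, unadjusted P = 0.016, FDR = 0.673 in edgeR's test). All its sh3 tumors were below all sh2 tumors, and 2 of 12 tested genes of this list and 10.1% of all genes were without overlap in this comparison. *Il1rn*, the antagonist of interleukin 1, was at 43.8 to 104 CPM, and neither it nor *Il1b* had an unadjusted P under 0.05 in any comparison. Among 12 tested ligands, their antagonist and upstream cytokines, the median was 0.45 with sh2, −0.34 with sh3 and −0.51 for sh3 against sh2, and 10 of the 12 estimates of the last comparison were below 0.

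The CXC chemokines *Cxcl1* and *Cxcl2*, further ligands of *Cxcr2* and chosen here after their values were seen, had log2 fold changes of −1.01 (SE 0.34, unadjusted P = 0.016) and −0.99 (SE 0.36, unadjusted P = 0.021) for the mean of both shRNAs against shControl, with an FDR of 0.982 for both. *Cxcl1* was at 71.0, 34.1 and 44.4 CPM in shControl, at 40.8, 12.9 and 19.4 CPM in sh2, and at 22.1, 25.0 and 28.1 CPM in sh3. Its highest tumor, shControl replicate 1, was also highest for *Cxcl2*, at 52.3 CPM against 10.1 to 19.8 CPM in the other tumors. *Cxcr2* itself had a log2 fold change of 0.11 (SE 0.42) in this comparison.

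Partner molecules of the receptors and of calprotectin were also measured. *Tyrobp*, the adaptor through which *Trem1* signals, ranged from 53.1 to 347 CPM, *Tlr4*, a receptor of calprotectin, from 29.2 to 48.4 CPM, *Il1r1* from 52.7 to 74.7 CPM and its coreceptor *Il1rap* from 17.6 to 33.9 CPM. Of these only *Il1rap* had an unadjusted P under 0.05 in edgeR's test. It was 0.018 for sh3 against shControl (log2 fold change −0.54, SE 0.19, FDR = 0.753) and 0.021 for the mean of both shRNAs (−0.45, SE 0.16, FDR = 0.982). All sh3 tumors were below all shControl tumors for *Il1rap* and for *Il1r1*, so 2 of the 6 partners and 12.2% of all genes were without overlap in that comparison. The median of the 6 partners was −0.12 with sh2, −0.38 with sh3 and −0.20 for sh3 against sh2.

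Markers of other cells were set beside the neutrophil genes. The 12 macrophage and monocyte genes summed to 3583 to 3944 CPM in shControl and 2681 to 3740 CPM in sh2. In sh3 they summed to 2281 CPM (replicate 1) to 7767 CPM (replicate 2), the lowest and the highest sum of all tumors. Of the 12, 11 had a higher estimate with sh3 than with sh2, as had 54.9% of all genes. This direction was opposite to that of the 10 neutrophil genes. None of the 12 had an unadjusted P under 0.05 in edgeR's test (lowest FDR 0.708), and the sh2 and sh3 tumors overlapped for each. The carcinoma markers *Epcam*, *Cdh1*, *Krt8*, *Krt18* and *Krt19* summed to 3085 to 4392 CPM in shControl, 3420 to 7223 CPM in sh2 and 3624 to 3925 CPM in sh3, and their highest sum was in sh2 replicate 2, where most neutrophil genes were also highest. Red cell and platelet genes, whose list holds 2 pairs of globin genes with identical counts, summed to 34.9 to 69.9 CPM, 31.2 to 96.4 CPM and 15.8 to 38.2 CPM in the 3 groups. Their highest tumor was again sh2 replicate 2 and their lowest sh3 replicate 3, the tumors at both ends of most neutrophil genes, and their part in the levels of the neutrophil genes was not tested. T cell genes were lowest in sh2 replicate 2 (21.6 CPM) and highest in sh3 replicate 3 (156 CPM), and mast cell and basophil genes summed to 16.2 to 34.8 CPM in shControl, 6.59 to 11.9 CPM in sh2 and 11.7 to 16.2 CPM in sh3.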

How the data were processed

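RNA of 9 KLN205 tumors (3 shControl, 3 sh2, 3 sh3) was sequenced from poly(A) libraries made with a stranded kit. According to the submitters' processing notes the authors aligned reads to mm10 with STAR 2.5.3a and counted them with featureCounts; the strand setting is not given in the sources used here. The authors deposited raw counts for 19481 genes, which were tested here, and deposited TPM, which were used only for levels between genes. A further 9 columns of CPM and 10 columns of the authors' own comparisons (fold changes and P values) were not used.

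Counts were analysed with edgeR 4.0.16 (limma 3.58.1) in R 4.3.3: filterByExpr by group (14725 genes), TMM, 1 coefficient per group over all 9 tumors, robust quasi-likelihood tests, and Benjamini-Hochberg FDR over all genes tested, with a threshold of 0.05. CPM values are from the same TMM factors, and log2 CPM have a prior count of 2. Exact permutation tests and correlations (all orders of the 9 tumors, two-sided) were run in Python 3.11.15 with numpy 2.4.6, scipy 1.17.1 and pandas 2.3.3, and plots in matplotlib 3.10.9. The fit was tested on simulated counts, where 200 of 14587 genes were changed by 2 on the log2 scale in sh2 alone, and of these 88.5% were recovered for sh2 against shControl, 87.0% for sh3 against sh2 and 54.5% for the mean of both shRNAs against shControl. These shares are averages over the changed genes and were not taken separately for the neutrophil genes. For sh3 against sh2 the SE of the neutrophil genes ran from 0.38 (*Csf3r*) to 1.14 (*Ngp*). The shares therefore do not give the power of the tests of the neutrophil genes. P values measure the spread between the tumors, which the labels call biological replicates.

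The 10 neutrophil genes and all lists were chosen with earlier results of these data known. The genes named are these 10, *Tmprss11b*, of each other list those with an FDR under 0.05 (none) and up to 4 with the highest mean CPM, and the 5 genes most like *Csf3r* and *S100a8*. *Elane*, *Ms4a3*, *Cdh1*, *Camp*, *Mmp8*, *Cxcl1*, *Cxcl2*, *Cxcl15*, *BC100530* and those in the closing section were chosen after their values were seen, as members of the lists. Alternatives were DESeq2's size factors in edgeR, DESeq2 1.42.0 with its Wald test, edgeR's likelihood ratio test, no low-count filter, a minimum of 10 counts per tumor, a fit of the compared groups alone, a block by replicate number, leaving out each tumor, a prior count of 0.5 for the permutation tests, and group-centred values for correlations. Promoter sequences and gene coordinates are RefSeq's for GRCm38.p6, the same assembly as mm10, and all 10 symbols matched.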

Additional observations from a re-analysis of the deposited data

How the results depend on the processing

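None of the 10 neutrophil genes passed an FDR of 0.05 under any alternative; over all genes, DESeq2's Wald test called 2 genes for sh2, 41 for sh3, 9 for the mean of both and 48 for sh3 against sh2, and edgeR's likelihood ratio test 8, 8 and 14 in the last 3, where the quasi-likelihood test called 0. Apart from leaving out tumors, 1 estimate turned sign: that of *S100a9* for the mean of both shRNAs, −0.0012 with the replicate block. Tumors with the same replicate number did not deviate together more than others (correlations from −0.235 to 0.086, beside −0.297 to 0.385 for unlike numbers). The numbers were therefore not treated as pairs, although 3 tumors per group cannot exclude a pairing. With the block the median of the 10 genes was 0.76, −0.21, 0.18 and −0.85 in the 4 comparisons and no call changed. Leaving out single tumors turned the sign of these log2 fold changes, given as lowest to highest: for sh2, *S100a8* −0.17 to 1.31, *S100a9* −0.087 to 1.26, *Csf3r* −0.20 to 0.11 and *Ngp* −1.18 to 1.44; for sh3, *S100a8* −1.12 to 0.95, *S100a9* −1.23 to 0.47, *Csf3r* −0.69 to 0.018, *Lcn2* −0.30 to 1.07, *Trem1* −0.69 to 0.27, *Clec4d* −0.23 to 0.73, *Il1r2* −0.056 to 0.65 and *Ngp* −2.90 to 0.012; for the mean of both, *S100a8* −0.42 to 1.13, *S100a9* −0.42 to 0.87, *Cxcr2* −0.14 to 0.33 and *Ngp* −1.90 to 0.73; for sh3 against sh2, *S100a8* −1.40 to 0.082 and *Csf3r* −0.65 to 0.061. Where an arm was left with 2 tumors, the spread was shared with the other groups. The relation of *Lcn2* and *Csf3r* had r = 0.69 with group means removed (permutation P = 0.038, not adjusted). This permutation exchanged centred values between groups and took no account of the removed means, so its P is not exact and is likely too small. With 3 tumors per group, *Ngp* at 1 to 46 counts and *Retnlg* at 5 to 42 counts are limited by depth; the other genes had at least 63 counts in every tumor.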

Other observations

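Sh2 replicate 2, the tumor highest for 6 of the 10 neutrophil genes, was also highest for some further genes of neutrophils and of their recruitment, but not for others. *G0s2*, a lipase inhibitor abundant in neutrophils, was at 17.2 CPM there and at 1.92 to 7.45 CPM in the other tumors. *Csf2*, the cytokine GM-CSF, was at 18.6 CPM there and at no more than 4.30 CPM elsewhere, and *Ppbp*, a platelet-derived ligand of *Cxcr2*, at 8.55 CPM and at no more than 4.17 CPM elsewhere. *Cxcl1*, another ligand of *Cxcr2*, was at its lowest level of the 9 tumors there (12.9 CPM), and the granule gene *Ltf* at its second lowest (181 CPM). The macrophage receptor *Csf1r* was at 177 CPM in that tumor, the second lowest level of the 9. For *G0s2* and *Ppbp* all sh3 tumors were below all sh2 tumors (10.1% of all genes were without overlap). In edgeR's test their log2 fold changes for sh3 against sh2 were −1.98 (SE 0.57, FDR = 0.673) and −1.82 (SE 0.58, FDR = 0.673). For *Ppbp* all sh2 tumors were also above every shControl tumor (11.4% of all genes were without overlap), at 1.82 (SE 0.58, FDR = 0.999).

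Shared ends of the range did not extend to all myeloid chemoattractant receptors. *Fpr1* and *Fpr2*, the formyl peptide receptors, were highest in sh3 replicate 2 (27.4 and 40.3 CPM) and lowest in sh3 replicate 1 (1.90 and 8.23 CPM), and sh3 replicate 3, lowest for 7 of the 10 neutrophil genes, was second highest for both (22.7 and 35.3 CPM). *Cxcr1*, listed beside *Cxcr2* as a neutrophil receptor, was at no more than 0.231 CPM in any tumor.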
